A study of Mus musculus with 6 samples.

Results

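The epithelial claudins and connexins examined here are Cldn1, Cldn3, Cldn4 and Cldn7, occludin (Ocln), and the connexin genes Gja1, Gjb2, Gjb5 and Gjb6. They were picked by gene symbol from the deposited count table, which gave 9 members among 23420 genes. RNA of whole mouse retinas was sequenced in 3 groups with 2 libraries each, and the study asked how the tetracycline derivative minocycline acts on the retina after bright light. Control retinas received no treatment, light-exposed retinas were taken 4 days after 1 h of white light, and minocycline-treated retinas had the same light plus minocycline into the peritoneum, 45 mg/kg per injection. The sample labels name CD1 mice, 10000 lux and 4 days of daily injections, whereas the methods of the study name albino BALB/cJ mice of both sexes aged 10 to 14 weeks, 15000 lux and 5 days of injections, more than daily at the start. No labelled library comes from light-exposed mice injected with vehicle alone, so the drug and the injections cannot be told apart. The headers of the count table do not tell the minocycline-treated libraries apart, and they are named A and B here, with no replicate number.

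Tight junctions seal the space between neighbouring epithelial or endothelial cells. Claudins form their strands and set which ions pass, and occludin sits in the same strands. Gap junctions are channels between cells, built from connexins, through which ions and small metabolites move. In the eye, tight junctions close the retinal pigment epithelium, the retinal vessels and the surface of the cornea, while gap junctions couple glia, pigment epithelium, smooth muscle and neurons.

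Total counts ranged from 15205930 to 22856922 per library. Levels are given as CPM, counts scaled to a library of 1000000 after adjustment by the TMM factor (trimmed mean of M values). A gene with 0 counts could still lie below 3 counts, a limit of 0.131 to 0.213 CPM depending on the library, and these limits cover counting error only. Rod markers were high throughout (Gnat1, 163353 to 407453 counts) and mark retinal tissue. Xist, transcribed from the inactive X chromosome of females, had 77778 counts in control 1 and at most 188 in any other library. Where a member was higher in a group, more cells of a type and more RNA per cell cannot be told apart in such tissue RNA. The sources call the libraries biological replicates without saying whether retinas were pooled, so p-values measure only the spread between these samples.

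The members with the largest differences between groups were Cldn4, Gja1 and Gjb2. Their 250 bases upstream of the RefSeq transcript start are shown with those of Gjb6, the neighbour of Gjb2, since these genes had their highest counts in the same libraries. The windows were read on the gene's strand from RefSeq for build GRCm38.p6. They lie at chr5:134946935-134947184 (minus strand) for Cldn4, chr10:56377050-56377299 (plus strand) for Gja1, chr14:57104703-57104952 (minus strand) for Gjb2 and chr14:57133612-57133861 (minus strand) for Gjb6. Capitals mark matches, on either strand, to the E-box CACCTG, the AP-1 motif TGANTCA, the grainyhead core AACNNGTT and the GC box GGGCGG.
Cldn4: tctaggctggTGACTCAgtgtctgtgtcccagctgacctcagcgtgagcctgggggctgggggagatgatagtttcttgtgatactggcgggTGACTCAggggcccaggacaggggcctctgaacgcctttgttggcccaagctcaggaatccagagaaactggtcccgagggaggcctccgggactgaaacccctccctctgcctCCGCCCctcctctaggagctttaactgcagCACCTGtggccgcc
Gja1: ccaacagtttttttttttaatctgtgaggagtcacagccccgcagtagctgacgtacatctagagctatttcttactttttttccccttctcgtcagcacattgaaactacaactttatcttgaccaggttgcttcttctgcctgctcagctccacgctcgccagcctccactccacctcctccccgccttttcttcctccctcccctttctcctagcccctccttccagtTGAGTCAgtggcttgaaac
Gjb2: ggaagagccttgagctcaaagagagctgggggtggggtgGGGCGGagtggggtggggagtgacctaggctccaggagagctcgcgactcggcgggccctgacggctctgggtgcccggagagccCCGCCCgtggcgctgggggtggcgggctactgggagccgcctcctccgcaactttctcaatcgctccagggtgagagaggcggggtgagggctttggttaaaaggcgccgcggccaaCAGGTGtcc
Gjb6: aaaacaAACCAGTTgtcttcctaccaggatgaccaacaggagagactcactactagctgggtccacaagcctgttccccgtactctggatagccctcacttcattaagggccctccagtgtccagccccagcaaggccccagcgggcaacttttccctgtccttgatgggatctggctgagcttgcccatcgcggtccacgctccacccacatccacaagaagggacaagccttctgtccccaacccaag
The Cldn4 window held the AP-1 letters at 240 to 234 and at 158 to 152 bases upstream, a GC box at 44 to 39 and an E-box at 14 to 9. The Gja1 window held 1 match, the AP-1 letters at 19 to 13 bases upstream. The Gjb2 window held GC boxes at 211 to 206 and at 126 to 121 bases and an E-box at 9 to 4, and the Gjb6 window held only the grainyhead core at 244 to 237. Among 32817 windows of this length, 17.2% held the E-box, 6.75% the AP-1 motif, 3.64% the grainyhead core and 32.7% the GC box. A match describes letters only. No motif of this set was shared by all 4 windows.

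Several of the genes are neighbours in the genome (GRCm38, GENCODE M21). On chromosome 5, Cldn4 (134945119 to 134946934, minus strand) and Cldn3 (134986214 to 134987472, plus strand) are 39279 bases apart. On chromosome 14, Gjb2 (57098600 to 57104702) and Gjb6 (57123303 to 57133611), both on the minus strand, are 18600 bases apart. Gjb5 lies on chromosome 4 at 127354809 to 127358181. The remaining members are Cldn1 on chromosome 16 (26356642 to 26371841), Cldn7 on chromosome 11 (69964779 to 69967885), Ocln on chromosome 13 (100496507 to 100552718) and Gja1 on chromosome 10 (56377330 to 56402513). Cldn3 overlaps an antisense gene, Wbscr25, and the use of strand in counting is not given in the sources used here, so its few reads cannot be assigned with certainty.

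Cldn1 encodes a claudin that seals skin and other epithelia, and its level did not separate the groups. Control retinas gave 51 and 113 counts, light-exposed retinas 71 and 142, and the minocycline libraries A and B 106 and 124. In CPM this was 3.63 and 7.96 CPM, 4.15 and 6.74 CPM, and 4.61 and 6.57 CPM. The replicates differed more than the groups did, and all 3 groups overlap.

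Cldn4, a claudin that limits the passage of sodium in many epithelia, was near absent outside the minocycline-treated retinas. Both controls had 0 counts, the light-exposed retinas had 1 and 4, and minocycline A and B had 46 and 35. The minocycline libraries reached 2.00 and 1.85 CPM, and no other library exceeded 0.190 CPM. Its neighbour Cldn3, a claudin often found in the same epithelia, had 0 and 0, 1 and 3, and 0 and 1 counts in the same order, so no library passed the limit of 3 counts.

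Cldn7, which also occurs along the lateral membrane of epithelial cells, was present in every library. The controls had 13 and 12 counts, the light-exposed retinas 12 and 10, and minocycline A and B 44 and 41. In CPM these were 0.924 and 0.845, 0.701 and 0.475, and 1.92 and 2.17. Both minocycline libraries lay above the other 4, and both light-exposed libraries lay below both controls.

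Ocln varied least of the members detected in all libraries, by 1.56-fold between its lowest and highest level. Its counts were 31 and 27 in the controls, 36 and 43 after light, and 53 and 56 with minocycline. The levels were 2.20 and 1.90 CPM, 2.10 and 2.04 CPM, and 2.31 and 2.97 CPM. The minocycline libraries were the highest, but minocycline A lay close to control 1.

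Gja1 is the most widespread connexin gene, known from heart, smooth muscle, fibroblasts and astrocytes. Its levels spread most widely of the members, and in the minocycline libraries it had the most reads. It had 46 and 98 counts in the controls, 78 and 133 after light, 546 in minocycline A and 2098 in minocycline B. The corresponding levels were 3.27 and 6.90 CPM, 4.56 and 6.31 CPM, 23.8 CPM and 111 CPM. The control and light-exposed libraries overlap, both minocycline libraries lie above them, and the minocycline libraries themselves stand far apart.

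The beta connexins Gjb2 and Gjb6 couple supporting cells of the inner ear and keratinocytes. Gjb2 had 0 and 3 counts in the controls, 0 and 0 after light, and 25 and 50 in minocycline A and B, where its levels were 1.09 and 2.65 CPM. Gjb6 had 1 and 2, 0 and 0, and 7 and 21 counts, with 0.305 and 1.11 CPM in the minocycline libraries. Both genes passed the limit of 3 counts only in the minocycline-treated retinas. Gjb5, a connexin of skin and placenta, had 1 count in minocycline A and 0 in each other library.

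**Figure D1:**
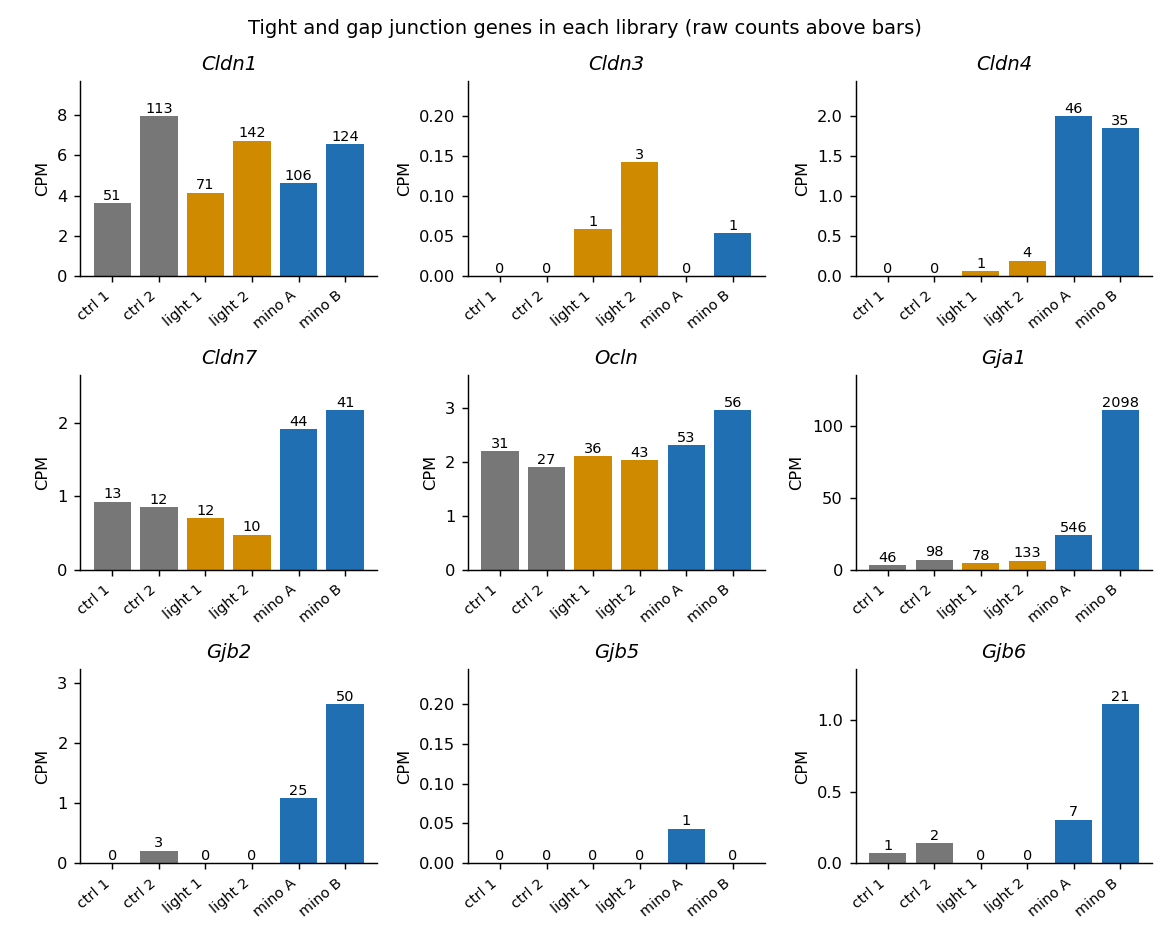
Level of each member in each of the 6 libraries (bars, CPM on a linear axis that starts at 0 and differs between panels), with the raw count above each bar. Cldn4, Cldn7, Gja1, Gjb2 and Gjb6 are highest in the minocycline libraries (mino A, mino B), where Gja1 ranges from 23.8 to 111 CPM, while Cldn1 overlaps between all 3 groups (ctrl, control).

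To compare levels between genes, CPM was divided by the length of all annotated exons in kb. In control retinas the order was Cldn1 at 1.20 ± 0.633 CPM per kb (SD, n = 2), Gja1 at 0.496 ± 0.250, Ocln at 0.486 ± 0.0506 and Cldn7 at 0.454 ± 0.0287. The neighbours Gja1, Ocln and Cldn7 do not differ beyond their spread, since the Gja1 libraries at 0.319 and 0.673 enclose both others. Gjb2 and Gjb6 followed below 0.05, and Cldn3, Cldn4 and Gjb5 had 0 counts. In the light-exposed retinas the first 4 places were held by the same genes, with Cldn1 at 1.13 ± 0.379, Gja1 at 0.530 ± 0.121, Ocln at 0.491 ± 0.0102 and Cldn7 at 0.302 ± 0.0821. In the minocycline-treated retinas Gja1 came first at 6.58 ± 6.02 CPM per kb. Cldn1 (1.16 ± 0.286), Cldn4 (1.06 ± 0.0575) and Cldn7 (1.05 ± 0.0933) followed at levels that overlap between libraries. Gjb2 (0.777 ± 0.459) overlaps with these genes and with Ocln (0.625 ± 0.111), and Gjb6 (0.265 ± 0.214) was lower than Ocln in both libraries. Cldn4 thus ranked beside Cldn1 and Cldn7 with minocycline, after 0 counts in the controls.

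The comparison of light-exposed with control retinas asks whether light alone moved these genes, and none of them passed the test. The test was the quasi-likelihood F test of edgeR on the counts, with Benjamini-Hochberg adjustment over all tested genes, and a gene was called at an adjusted p under 0.05 if its log2 fold change was also 2 or more in size. The filter on low counts kept 4 of the 9 members, Cldn1, Cldn7, Ocln and Gja1. Of these, 0 were called, against 2.89% of 14349 genes called higher. None had an unadjusted p under 0.05, a level that 16.5% of all genes reached upwards and 12.4% downwards, and DESeq2 called 0 (3.08% of its genes were called higher). The log2 fold changes were 0.10 for Gja1 (SE 0.388, adjusted p = 0.886), 0.02 for Ocln (SE 0.384, adjusted p = 0.982), -0.08 for Cldn1 (SE 0.412, adjusted p = 0.918) and -0.59 for Cldn7 (SE 0.506, adjusted p = 0.475). Cldn7 was the 1 tested member whose libraries did not overlap in this comparison, and 30.3% of all tested genes had light-exposed libraries below both controls. The standard errors of 0.384 to 0.506 on the log2 scale limit the size of change that these tests could detect.

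Minocycline-treated retinas were next compared with light-exposed retinas, which had the same light without the drug. Cldn4 had a mean of 1.93 ± 0.105 CPM with minocycline and 0.124 ± 0.0930 without it (SD, n = 2 each), a log2 fold change of 3.85 (SE 0.583, adjusted p = 0.0691). Gja1 had 67.5 ± 61.8 and 5.44 ± 1.24 CPM, a log2 fold change of 3.65 (SE 0.804, adjusted p = 0.0994). Cldn7 had 2.04 ± 0.182 and 0.588 ± 0.160 CPM, a log2 fold change of 1.82 (SE 0.436, adjusted p = 0.0892). Each of these genes had both minocycline libraries above both light-exposed ones, and each missed the adjusted threshold. The log2 fold change of Cldn4 was 3.30 when light-exposed replicate 1 was left out and 4.90 when replicate 2 was.

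Gjb2 had 0 counts in both light-exposed libraries, so its fold is a lower bound, and it was at least 11.8-fold higher with minocycline when 3 counts are assumed in each light-exposed library (adjusted p = 0.0698). By the same bound Gjb6 was at least 4.46-fold higher, but the filter removed it and it was not tested. Both bounds rest on the mean of minocycline A and B. Library A was the lower, at 1.09 against 2.65 CPM for Gjb2 and 0.305 against 1.11 CPM for Gjb6. Cldn1 (log2 fold change 0.05, SE 0.362, adjusted p = 0.959) and Ocln (0.36, SE 0.361, adjusted p = 0.619) did not pass the test. In all, 0 of the 6 tested members were called, with 0.0136% of 14750 genes called higher. An unadjusted p under 0.05 was reached upwards by 4 of the 6 (Cldn4, Cldn7, Gja1 and Gjb2), beside 9.04% of all genes. The minocycline libraries lay above the light-exposed ones in 5 of the 6, beside 26.1% of all genes. DESeq2, which filters genes in another way, called 4 members (Cldn4, Gja1, Gjb2 and Gjb6), beside 0.677% of its genes. Leaving out light-exposed replicate 1 gave 2 called members in edgeR (Cldn4 and Gjb2) among 400 called genes, and leaving out minocycline A gave 2 (Gja1 and Gjb2) among 108, where the fit of all 4 libraries called 7 genes. The spread was then taken from 1 pair of libraries. The members were chosen with such values already known, and Cldn4 and Gjb2 entered the test only through their minocycline counts, so these shares describe the list and are no independent evidence. The median log2 fold change of the 6 was 2.73, or 2.69 with Gjb2 at its bound, against 0.0062 over all tested genes.

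Against the untreated controls, Cldn4 was the 1 member that passed the call. It rose from 0 counts in both controls to a level at least 9.08-fold higher with minocycline (adjusted p = 0.0366). Since its controls had 0 counts, Cldn4 entered the test only through its minocycline counts, and it was picked with these values known, so the call is no independent evidence. The adjusted p was 0.217 without control 1, 0.252 without control 2 and 0.0736 when all 6 libraries were fitted together. The number of genes called in all fell from 19 to 2, 7 and 0 in these fits. Without minocycline A or without minocycline B, 3 members were called (Cldn4, Gja1 and Gjb2) among 228 and 100 genes, with the spread taken from the controls alone. Gjb2 had 3 counts in the controls against 75 with minocycline, and the ratio of their levels was 16.9 (95% counting interval 5.56 to 83.7). Its log2 fold change was 4.08 (SE 0.903, adjusted p = 0.192). It was 3.13 without control 1, and without control 2, which held all 3 counts, the remaining control stands at 0 and sets no fold. Gja1 had a log2 fold change of 3.77 (SE 1.1, adjusted p = 0.695), and Cldn7 one of 1.24 (SE 0.404, adjusted p = 0.466).

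Ocln (0.40, SE 0.364, adjusted p = 0.765) and Cldn1 (-0.01, SE 0.408, adjusted p = 0.994) did not pass the test. Gjb6 was untested, and the ratio of its pooled levels was 6.30 with a counting interval of 1.95 to 32.4. The count of called members was 1 of 6 by edgeR and 1 by DESeq2, with 0.134% and 0.675% of all genes called higher. An unadjusted p under 0.05 with a higher level was found for 4 of the 6 (5.39% of all genes), and libraries that did not overlap for 5 of the 6 (15.9% of all genes). The median log2 fold change was 2.50, or 2.21 with Cldn4 at its bound, against 0.021 over all genes. As in the preceding comparison, these shares and medians describe a list chosen with the values known. This comparison and the preceding one share the minocycline libraries and are not independent of each other.

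**Figure D2:**
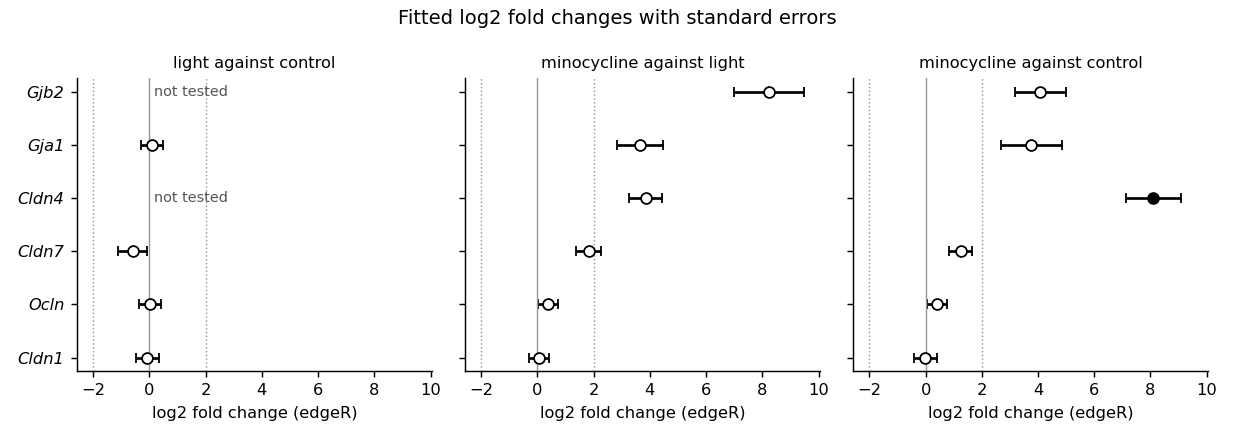
Fitted log2 fold change of each tested member (points) with its standard error (bars) in the 3 comparisons, where a filled point is a call and dotted lines mark a log2 fold change of 2 in size. Only Cldn4 against control is filled. The fitted values of Gjb2 against light and Cldn4 against control rest on groups with 0 counts, for which the text gives bounds of 11.8-fold and 9.08-fold.

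The minocycline libraries were also compared with each other, member by member. Cldn4 had a ratio of B to A of 0.926 (95% counting interval 0.579 to 1.47), Cldn7 of 1.13 (0.723 to 1.78) and Ocln of 1.29 (0.868 to 1.91), intervals that all include 1. Gja1 was 4.68-fold higher in B (4.25 to 5.15), Gjb6 3.65-fold (1.5 to 10.2) and Gjb2 2.43-fold (1.48 to 4.11). Cldn1 lay between, at 1.42 (1.09 to 1.86). These intervals hold counting error alone, and replicates of the other groups differed too. Between control 2 and control 1 the ratio was 2.11 for Gja1, 1.98 for Gjb6 (2 counts against 1), 2.2 for Cldn1, 0.914 for Cldn7 and 0.863 for Ocln. Between light-exposed replicates 2 and 1 it was 1.39 for Gja1, 1.63 for Cldn1, 0.677 for Cldn7 and 0.971 for Ocln. Without minocycline B the log2 fold change of Gja1 fell from 3.65 to 2.12 against light and from 3.77 to 2.23 against control, and without minocycline A it was 4.38 and 4.49.

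Marker lists of other tissues of the eye also differed between these libraries. Summed markers of smooth muscle were 4.70-fold higher in B than in A, those of pigment cells 4.53-fold and those of stroma 3.95-fold. Markers of the retinal pigment epithelium were 1.61-fold, of corneal epithelium 1.42-fold and of rods 1.08-fold higher. Between control 2 and control 1 the corresponding ratios were 4.6 for pigment cells, 2.52 for the retinal pigment epithelium, 2.22 for smooth muscle, 1.55 for stroma, 0.345 for corneal epithelium and 0.787 for rods. Between the light-exposed replicates (2 to 1) they were 1.56, 1.35, 1.32, 1.28, 2.16 and 0.706 in the same order. Of these lists, smooth muscle had the ratio nearest to that of Gja1.

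**Figure D3:**
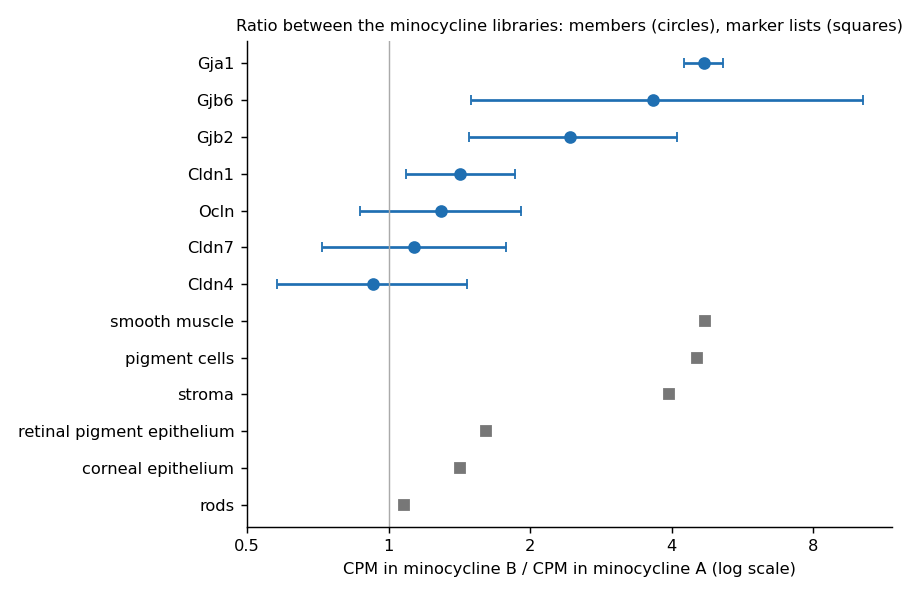
Ratio of the level in minocycline B to that in minocycline A (log axis) for the members detected in both (circles, with 95% counting intervals) and for summed marker lists (squares). Cldn4, Cldn7 and Ocln have intervals that include 1, whereas Gja1 at 4.68 sits beside smooth muscle at 4.70.

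The markers of corneal epithelium were far higher in both minocycline libraries, as Cldn4 was. Their summed level was 3.80 to 11.02 CPM in the controls, 9.40 to 20.3 CPM after light and 191 to 272 CPM with minocycline. Krt12, the keratin that defines corneal epithelium, had 36 and 6, 43 and 128, and 1798 and 2405 counts. Of the 8 tested markers of the 10 listed, 7 had an unadjusted p under 0.05 upwards against light and 8 against control (9.04% and 5.39% of all genes), with 0 passing the adjusted threshold in edgeR and 5 called by DESeq2 in each comparison (0.677% and 0.675% of its genes). Only 5 of the markers passed the filter after light, so the other 3 entered through their minocycline counts. Those 5 had a median log2 fold change of 1.34 after light, where edgeR called Krt15 higher (2.19, adjusted p = 0.0476, from 2 and 3 to 13 and 19 counts), beside 2.89% of all genes, and DESeq2 called 0. The part of these cells in the level of Cldn4 was not tested. Per 1000 CPM of corneal markers, Cldn4 stood at 0 in the controls, 6.21 and 9.37 after light (from 1 and 4 counts), and 10.5 and 6.83 with minocycline. Cldn7 ran from 222 in control 2 to 8 in minocycline B on this scale. Of the 13 lists, corneal epithelium had the smallest root mean square difference of centred log2 CPM from Cldn4 (0.645), before smooth muscle (0.869) and stroma (0.915). The low end of Cldn4 rests on 0 to 4 counts, so this order only describes these libraries. Corneal epithelium was far from Cldn7 (1.77), which lay nearest to rods (0.472).

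Smooth muscle, stroma and pigment cell markers were likewise highest with minocycline, together with Gja1 and Gjb2. The smooth muscle sum was 11.3 to 25.1 CPM in the controls, 17.0 to 22.5 after light and 74.4 to 350 with minocycline. The stroma sum was 11.4 to 17.8, 12.7 to 16.3 and 44.4 to 175 CPM, and the pigment cell sum 15.8 to 72.6, 29.1 to 45.3 and 306 to 1386 CPM. Their defining markers Myh11, Dcn and Tyr were present in all 6 libraries, with at least 18, 15 and 6 counts. Against light, 5 of 6 smooth muscle, 6 of 7 stroma and 6 of 6 pigment cell markers had an unadjusted p under 0.05 upwards, beside 9.04% of all genes, and 0 passed the adjusted threshold. DESeq2 called 5, 6 and 6 of them higher (0.677% of its genes). Against control the numbers at that unadjusted p were 4 of 6, 7 of 7 and 3 of 6, beside 5.39% of all genes, again with 0 after adjustment, and DESeq2 called 1, 4 and 1 (0.675% of its genes). Cnn1 of the smooth muscle list and Lum and Fbln1 of the stroma list were not tested after light and entered only through their minocycline counts, so these numbers describe the lists. The part of these cells in the level of the connexins was not tested.

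Gja1 kept a near constant ratio to the smooth muscle markers. Per 1000 CPM of the smooth muscle sum, Gja1 stood at 289 and 275 CPM in the controls, 268 and 281 after light, and 319 and 318 in minocycline A and B. This ratio varied by 1.19-fold over the 6 libraries, while the level of Gja1 varied by 34.0-fold. Set against stroma the ratio varied by 2.22-fold, and against pigment cells by 2.66-fold. Smooth muscle was the closest of 13 marker lists and was picked for that, so this is a description of these 6 libraries.

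Of the marker lists, the retinal pigment epithelium had the pattern nearest to that of Cldn1 and was picked for that. The summed markers of that layer stood at 138 and 349 CPM in the controls, 145 and 195 after light, and 110 and 177 with minocycline. Cldn1 was at 26.2 and 22.8, 28.6 and 34.5, and 41.9 and 37.1 CPM per 1000 CPM of these markers. This ratio varied by 1.84-fold over the libraries, little less than the 2.2-fold of Cldn1 itself. In each group the library with the higher marker sum also had the higher Cldn1 level, and the sums of pigment cells, smooth muscle and stroma were ordered in the same way. Rpe65, the retinoid isomerase of this epithelium, had 275 to 966 counts, whereas Best1, another of its genes, had 0 or 1 count in every library.

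**Figure D4:**
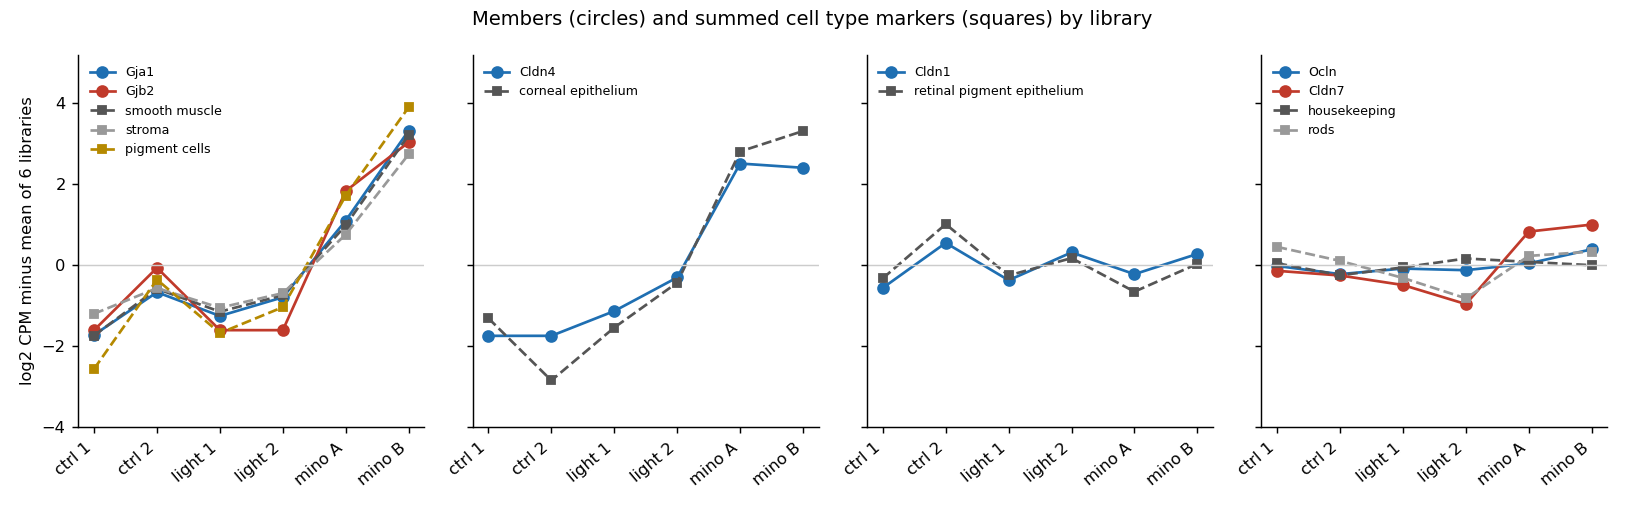
Level of tested members (circles, solid lines) and summed marker lists (squares, dashed lines) in each library, as log2 CPM minus the mean of the 6 libraries. Gja1 lies on the smooth muscle line throughout, Cldn4 and corneal epithelium are highest in the minocycline libraries, Cldn1 is drawn with the retinal pigment epithelium, and Ocln and Cldn7 with housekeeping genes and rods.

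The genes whose patterns were most like each member were taken by the smallest root mean square difference of centred log2 CPM over the 6 libraries, among 14713 genes. For Gja1 these were Islr (0.138), Fam129a (0.182) and Tagln (0.22), and for Gjb2 they were Cnn1 (0.392), Tagln (0.462) and Dcn (0.473). Islr and Dcn are on the stroma list and Tagln and Cnn1 on the smooth muscle list. The nearest genes to Cldn4 were 1600029D21Rik (0.31), Fam83a (0.365) and Trim29 (0.378). Those to Cldn7 were Gja4 (0.149), a connexin gene of vessels, Hist2h3c2 (0.251) and Fbln2 (0.267). Cldn1 was nearest to Col8a1 (0.0952), A330049N07Rik (0.098) and Sned1 (0.115), and Ocln to Gpr125 (0.0587), Glce (0.0627) and Pkp4 (0.067). Between members, the smallest differences were 0.456 for Cldn1 and Ocln, whose levels varied little, and 0.544 for Gja1 and Gjb2.

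Other claudins gave 21 genes in the table, of which 6 were tested after light and 7 in each minocycline comparison. After light, Cldn2, a claudin that forms channels for cations, was called lower with a log2 fold change of -2.13 (adjusted p = 0.0415), beside 0.0279% of all genes called lower, and DESeq2 did not call it. Its counts were 13 and 23 in the controls, 3 and 8 after light, and 33 and 60 with minocycline. Before the fold cutoff, 3.8% of all genes were lower at this adjusted p and 7.52% higher. Against light with minocycline, 0 claudins passed the adjusted threshold, 3 had an unadjusted p under 0.05 upwards (Cldn2 at 3.01, Cldn19 at 2.24 and the endothelial Cldn5 at 0.80 on the log2 scale, beside 9.04% of all genes), and DESeq2 called 1 (0.677% of its genes). Against control the numbers were 0, 1 (Cldn19 at 2.74, beside 5.39% of all genes) and 0. Cldn19 was not tested after light and entered only through its minocycline counts.

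Tight junction scaffold and adhesion genes link claudin strands to the cytoskeleton and to polarity proteins. After light, 4 of 25 tested genes had an adjusted p under 0.05 and a higher level (7.52% of all genes), led by Cgnl1 (log2 fold change 1.08), Ildr2 (0.83) and Amotl1 (0.77). None of them reached the fold cutoff, and DESeq2 called 0. With minocycline against light, 0 passed the adjusted threshold, 2 had an unadjusted p under 0.05 upwards and 3 downwards, a level that 9.04% and 12.1% of all genes reached, and DESeq2 called 0. The largest of these were Ildr2 (-0.57), Pard3 (0.46) and Amotl1 (-0.42). Against control the counts were 0, 1 upwards (Cgnl1 at 1.13, where 5.39% of all genes were higher) and 1 downwards (Marveld3 at -0.52, where 1.62% of all genes were lower), and DESeq2 called 0. The median log2 fold change of this list was 0.00982 against light and 0.064 against control.

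Of 19 other connexins and pannexins, 6 were tested after light and 7 with minocycline, and 0 passed the adjusted threshold in any comparison by edgeR or were called by DESeq2. An unadjusted p under 0.05 was found only for Gja4 with minocycline against light (log2 fold change 1.78), 1 of 7 genes beside 9.04% of all genes. Gja4 was not tested after light and entered only through its minocycline counts.

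Epithelial junction regulators, a list of transcription factors, proteases and adhesion proteins of which 4 also stand on the corneal list, were examined last. After light, 1 of 11 tested genes passed, the membrane protease St14 with a log2 fold change of 2.41 (adjusted p = 0.0173), which was also called by DESeq2 (2.89% and 3.08% of all genes were called higher). With minocycline against light, 0 of 16 passed the adjusted threshold, 9 had an unadjusted p under 0.05 upwards and 1 downwards (9.04% and 12.1% of all genes), and DESeq2 called 4 higher (0.677% of its genes). The 9 include the transcription factor Klf4 (2.75), E-cadherin Cdh1 (2.59) and the transcription factor Trp63 (2.45). St14 was at -1.33. Against control, 11 of 16 had an unadjusted p under 0.05 upwards (5.39% of all genes), 0 passed after adjustment and DESeq2 called 3 (0.675% of its genes). The 11 include Cdh1 at 3.87, Trp63 at 3.44 and Elf3 at 3.21 on the log2 scale. The regulators tested with minocycline but not after light, Cdh1, Trp63 and Elf3 among them, entered only through their minocycline counts. The median log2 fold changes were 1.06 against light and 1.31 against control.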

How the data were processed

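RNA of 6 mouse retina libraries, 2 per group, was sequenced from stranded mRNA preparations. Per the labels and the methods, the authors aligned the reads to mm10 with STAR and assigned them to genes, and they deposited a table of counts per gene. The data statement speaks of normalized DESeq2 counts, but the deposited values are whole numbers without scaling. The gene annotation and the use of strand in counting are not given in the sources used here. All 6 value columns were used (0 unused).

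Counts were tested in pairs of groups by the quasi-likelihood F test of edgeR 4.0.16 (R 4.3.3) with robust estimation, after filterByExpr and TMM scaling, and p-values were adjusted over all tested genes by the Benjamini-Hochberg method. Genes were called at an adjusted p under 0.05 if the log2 fold change was also 2 or more in size, the cutoff of the study. Standard errors were derived from the F statistic. Centred log2 CPM used a prior count of 2. Folds against a group with 0 counts were set at 3 counts per library. Intervals of ratios are 95% exact binomial intervals on the counts and cover counting error only. DESeq2 1.42.0 without shrinkage was the second tool. On simulated data, 200 genes had a true log2 fold change of 3 in size. Of them edgeR called 200 after light, 199 with minocycline against light and 200 against control, on 14192, 14610 and 14049 genes. Of the unchanged genes it called 0, 2 and 0. The simulated spread followed the trend over all genes, without the added spread of single genes. The share found is therefore no measure of how often such changes are detected in these libraries.

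The members and all lists (4 pathway and 13 marker lists) were chosen with earlier results of these data known. All members are named. From each pathway list, the called genes are named, or else the 3 with the largest change at an adjusted p under 0.05, or at that unadjusted p where none passed. A few genes of these lists are not reported here. For each tested member with a mean of at least 10 counts, the 3 most similar genes are named. Positions come from GENCODE M21 and upstream windows from RefSeq (GRCm38.p6), where all 9 members matched, with 11 windows. The correlation of the deviations of same-numbered control and light-exposed libraries was -0.00793, so their numbers were not used to pair them. Alternatives were scaling by DESeq2 size factors or total library size, testing all genes or only those with 10 or more counts in each library, DESeq2, all 6 libraries in one fit, no robust estimation, no fold cutoff, the replicate block and each library left out in turn.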

Additional observations from a re-analysis of the deposited data

How the results depend on the processing

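After light, 0 members were called under each alternative, and the fit with the replicate block also called 0. No paired analysis was possible because of the shared header of the minocycline columns in the other comparisons, which leaves these libraries without a replicate number. Counts of called members are given with the number of genes called in all. Against light, 0 called members among 7 called genes became 3 among 281 with no filter (Cldn4, Gjb2 and Gjb6), 4 among 405 with DESeq2 and 2 among 281 with all 6 libraries in one fit (Cldn4 and Gjb2), and ranged from 0 to 2 with a library left out. It was 2 among 400 without light-exposed replicate 1 (Cldn4 and Gjb2), 2 among 108 without minocycline A (Gja1 and Gjb2), 0 among 27 without light-exposed replicate 2 and 0 among 0 without minocycline B. Against control, 1 among 19 became 2 among 97 with no filter (Cldn4 and Gjb2), 0 among 2 with at least 10 counts in every library, where Cldn4 is not tested, and 0 among 0 with all 6 libraries in one fit. It ranged from 0 to 3 with a library left out, being 0 among 2 and 7 genes without control 1 or control 2, and 3 among 228 and 100 without minocycline A or minocycline B (Cldn4, Gja1 and Gjb2). Fits with a lone library take its spread from the other group, and calls made there rest on 1 pair.

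Cldn1 changed sign with total library size, to a log2 fold change of 0.16 after light, -0.135 against light and 0.0231 against control. With a library left out, Cldn1 ranged from -0.538 to 0.595, from -0.272 to 0.428 and from -0.473 to 0.671 in these comparisons. After light, Ocln ranged from -0.084 to 0.127, Gja1 from -0.337 to 0.74 and Cldn7 from -0.875 to -0.328. With minocycline, Cldn4 ranged from 3.3 to 4.9 against light, and Cldn7 from 1.53 to 2.09 against light and from 1.11 to 1.33 against control. Ocln ranged from 0.156 to 0.55 against light and from 0.173 to 0.569 against control. Gjb2 was 3.13 without control 1 and 4.58 and 3.28 without minocycline A and B against control. For the 5 tested members other than Cldn1, 106 of 106 alternative values with minocycline were higher and 0 reversed. In each of the 5, both minocycline libraries already lay above all other libraries, and Cldn4 and Gjb2 entered only through their minocycline counts. Refits of the same libraries could therefore hardly reverse, and this count is no independent evidence. The cause of these differences was not tested. Members with a few counts are limited by depth, as changes under 3 counts per library cannot be seen.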
